A study of Panicum virgatum with 54 samples.

Results

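The genes described here are 54 leaf genes of switchgrass (Panicum virgatum) that were low under drought but not low in plants that received drought and heat. They were chosen from 32190 gene identifiers by their own values at 96 to 168 h, with 12 libraries per treatment, on the scale log2(CPM + 1), where CPM is the count scaled to the library total. A gene had to have a mean of at least 3 CPM, a 75th percentile under drought at least 0.4 below the control median, and a 25th percentile under drought and heat at most 0.2 below it. The rule asked for the first 150 genes by rank, but only 54 passed and all were kept. Of the 27163 genes above this minimum, 761 met the drought condition. The 707 of these that failed the heat condition are called the other drought-low genes below.

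All plants were of genotype AP13, from the lowland cultivar Alamo, and leaf RNA at developmental stage E3 was sequenced from 54 libraries. The drought-and-heat plants (labelled DTHT) were held in a growth chamber of their own, while drought plants (DT) and untreated control plants shared another chamber. Each treatment was sampled at 0, 72, 96, 120, 144 and 168 h with 3 libraries per group. The titles give the drought-and-heat plants 0 h of heat at 72 h, so the 0 h and 72 h libraries preceded heat. At the next 3 times they give 24, 48 and 72 h of heat, and at 168 h no heat duration. Nothing in the labels tells if libraries of a group are from different plants, and p-values therefore measure only the spread between libraries.

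Switchgrass is a perennial C4 grass with 2 subgenomes, K and N. Drying leaves close their stomata, and abscisic acid signalling shifts transcripts from growth and carbon fixation towards protection. Heat adds a further programme, led by heat shock factors and chaperones, so that plants under both stresses can have a transcript profile that neither stress gives alone. Neither the deposited table nor the RefSeq table for P.virgatum_v5, in which 0 of the identifiers matched, pairs these identifiers with names, so no role can be given to any of the 54 genes.

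Library totals ran from 19160408 to 61615475 counts. A set of 405 genes found among the 0 h libraries was nearly absent from 12 of the 54 libraries, at most 0.0129 of its level in the 7 other untreated libraries, and intermediate in 4 more. None of the 12 was a control library. At 96 to 168 h they were 6 drought-and-heat and 3 drought libraries, and at 0 and 72 h they were replicate 2 of the drought-and-heat arm at both times and drought replicate 1 at 0 h. Of the 54 genes, 0 belong to that set. Results are therefore also given without these libraries.

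Over the times that chose them, the 54 genes lay below control under drought and at or above control under drought and heat. The drought median minus the control median had a middle value of -0.75 and ranged from -1.85 to -0.45 on the log2 scale. The drought-and-heat median minus the control median had a middle value of 0.39 and ranged from -0.02 to 2.46. It was over 0.4 above control for 25 of the 54 genes (34.6% of the 27163 genes), within 0.4 for 29 (51.8%) and over 0.4 below for 0 (13.5%), and it was above control at all for 53 genes (67.3%). Since the rule used these libraries, the differences are descriptions. In bulk leaf RNA, fewer cells of a type and less RNA per cell cannot be told apart.

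**Figure D1:**
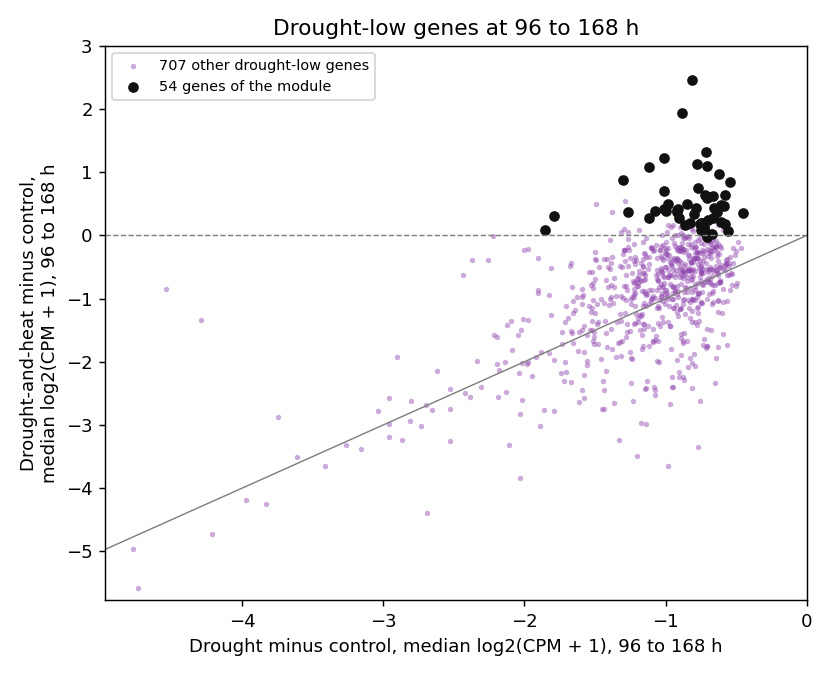
Each point is a drought-low gene, with the drought minus control difference on the x axis and the drought-and-heat minus control difference on the y axis, both in median log2(CPM + 1) over 12 libraries per arm at 96 to 168 h. The grey diagonal marks equal differences. The 54 genes lie between -0.02 and 2.46 on the y axis, while most of the other 707 lie below 0, both set by the rule.

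Each gene was next set against the 0 h mean of its own arm. The rule selected late values that were low in drought and not low in drought-and-heat leaves, both measured from the late control median. It thus also favoured high late control values, and the differences in all 3 arms are descriptions too. Drought leaves at 96 to 168 h stood below their own 0 h for 46 of the 54 genes and above it for 8, with a middle difference of -0.25. In drought leaves 19 of the 54 genes were lower by over 0.4 (13.9% of the 27163 genes) and 0 higher by that much (17.0%). Control leaves had a middle difference of 0.73, with 47 genes higher by over 0.4 (14.4%) and 1 lower (29.4%). Drought-and-heat leaves had a middle difference of 0.55, with 36 genes higher by over 0.4 (41.8%) and 0 lower (12.0%). Over the 27163 genes the middle differences were 0.04 in drought, -0.15 in control and 0.29 in drought-and-heat leaves. The other drought-low genes had a middle difference of -0.60 in drought leaves, with 68.2% of them lower by over 0.4, against 35.2% of the 54 genes.

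The level of the 54 genes is summarised for each library as the median over genes of log2(CPM + 1) minus the late control median. In drought-and-heat leaves the 96 h libraries stood at 0.88, 1.01 and 0.70, and those of 120 h had 0.86, 0.79 and 0.37. The 144 h libraries had -0.48, 0.18 and 0.41, and the 168 h libraries -0.34, 0.25 and 0.27. All of the 96 and 120 h values lay above the zero line that marks late control, and replicate 1 fell below it at both later times. Both of those low libraries lack the 405-gene set, but so does the highest one, replicate 2 at 96 h.

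Drought leaves lay below late control at 96 to 168 h, as the rule required. Their 12 libraries at 96 to 168 h ran from -1.05 to -0.10 with a median of -0.87, against -0.89 to 0.39 with a median of -0.03 in control. The highest drought values were replicate 2 at 96 h, at -0.10, and replicate 2 at 168 h, at -0.24. The lowest control library was replicate 2 at 144 h, at -0.89, inside the drought range. The 3 drought libraries without the 405-gene set ran from -1.02 to -0.64 and the 7 with the set on from -1.05 to -0.24. In the drought-and-heat arm, the 6 libraries without the set ran from -0.48 to 1.01 with a median of 0.21, and the 6 with it from 0.27 to 0.88 with a median of 0.55. The part that the set's libraries play in the level of the 54 genes was not tested.

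**Figure D2:**
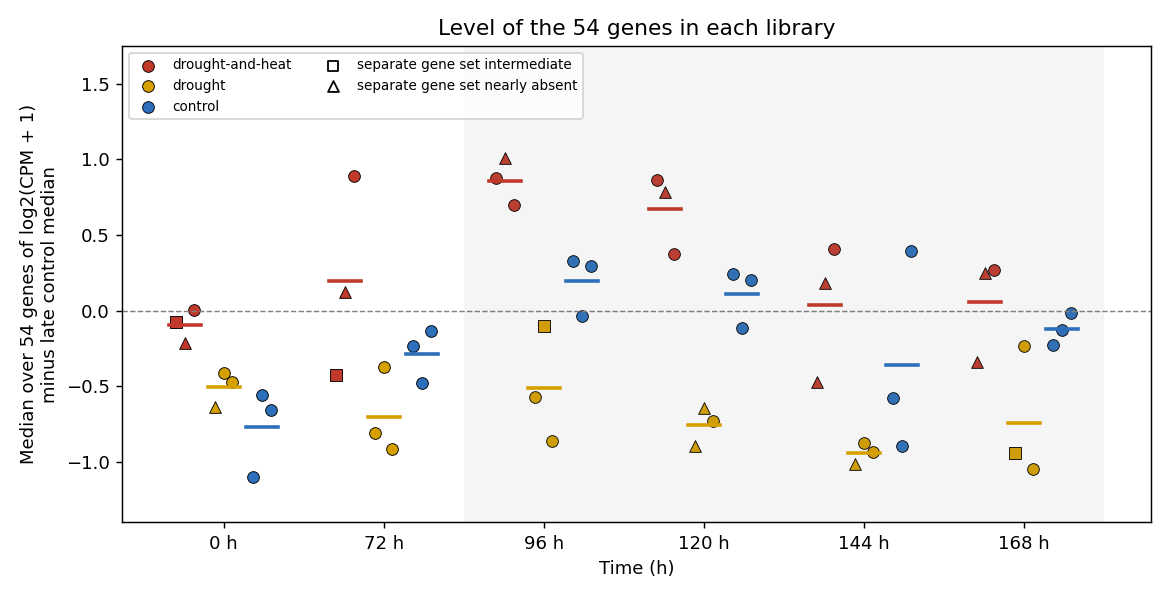
The y axis gives the median over the 54 genes of log2(CPM + 1) minus each gene's median in late control libraries, and the x axis gives time in hours, with 3 libraries per treatment and time as points and their mean as a bar. Triangles and squares mark libraries in which a separate set of 405 genes was nearly absent or intermediate, and grey shading marks the times used to choose the genes. Drought-and-heat libraries stand at 0.37 to 1.01 at 96 and 120 h.

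The rule favoured high drought-and-heat and control values and low drought values at 96 to 168 h, while 0 and 72 h values were unselected. The counts of peaks and of steps between times are therefore descriptions, and nothing is read from their shares. The drought-and-heat arm had its highest group mean at 96 h for 36 of the 54 genes (19.0% of the 27163 genes) and at 120 h for 14 (9.43%). Its group mean was higher at 96 h than at 72 h for 52 genes (56.5%), with a middle difference of 0.65, and lower at 144 h than at 120 h for 51 genes (64.8%), with a middle difference of -0.67. Over the 27163 genes these differences were 0.06 and -0.15. The most common peak over all genes in this arm was instead 168 h, at 41.4%, where 1 of the 54 genes had its peak. Control leaves peaked at 96 h for 31 of the genes (14.6%) and at 120 h for 16 (8.81%). Drought leaves peaked at 0 h for 21 genes (22.0%) and at 96 h for 22 (13.8%). In control, 50 genes were lower at 144 h than at 120 h (35.7%), with a middle difference of -0.42. Without control replicate 2 at 144 h the count was 34 (54.1%) and the difference -0.15.

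The gap between drought-and-heat and drought leaves had a middle value over the 54 genes of 0.35 before treatment and 1.03 at 72 h, with 0 h of heat, in libraries outside the rule. Among the times that chose the genes it was 1.39 at 96 h, 1.56 at 120 h and 0.98 at 144 h, with 0.84 a day later. The 2 sets of values cannot be ranked against each other. In the other drought-low genes the gap was 0.296 before treatment and 0.266 at 72 h. For 51 of the 54 genes the gap was positive in group means at all 5 times from 72 h (20.1% of the 27163 genes). It was positive at all 6 times for 40 of them (8.28%). Drought stood below control at all 5 times from 72 h for 52 genes (9.40%), and drought-and-heat above control at all 6 times for 29 (9.10%). The last 4 of these times chose the genes, and nothing is read from these counts.

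**Figure D3:**
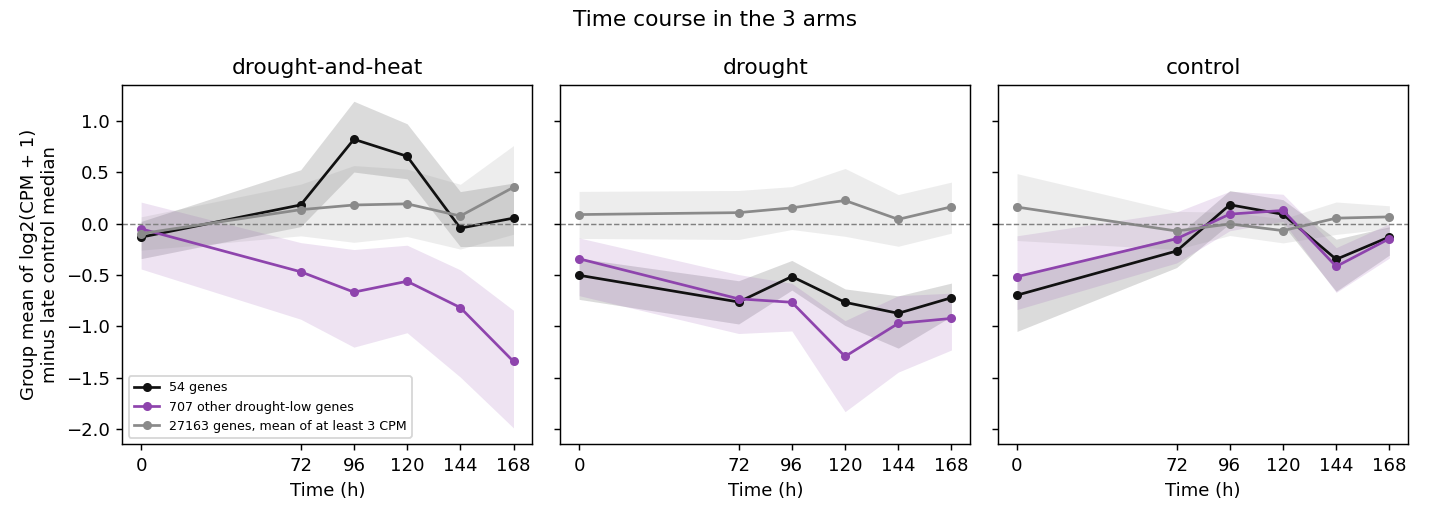
The y axis gives group means of log2(CPM + 1) minus each gene's late control median, and the x axis gives time in hours, for the 54 genes (black), the 707 other drought-low genes (purple) and the 27163 genes above the abundance minimum (grey). Lines are medians over genes and shading spans the 25th to 75th percentile. In drought-and-heat leaves the black and purple lines end at 0.05 and -1.34 at 168 h, and in drought leaves they stand at -0.77 and -1.29 at 120 h, values the rule selected.

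The gene at rank 1, Pavir.9NG066500.v4.1 on chromosome 9N, was low under drought, with values that overlapped those of control. At 96 to 168 h it ran from 3.71 to 22.97 CPM with a median of 13.1 CPM in drought-and-heat leaves, from 0.0660 to 2.48 CPM with a median of 1.00 CPM in drought leaves, and from 0.643 to 19.9 CPM with a median of 2.69 CPM in control leaves. The drought-and-heat and drought ranges did not overlap, and the highest control value came from 1 library at 144 h. At 72 h it had 1.18, 5.11 and 11.7 CPM in drought-and-heat leaves and 0.347, 1.95 and 0.423 CPM in drought leaves. These groups overlapped, because drought-and-heat replicate 1 lay below drought replicate 2 (log2 fold change 2.54 ± 0.86 (SE), edgeR adjusted p = 0.151).

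At rank 2, Pavir.4KG096600.v4.1 on 4K ran from 7.95 to 22.1 CPM in drought-and-heat leaves at 96 to 168 h, from 0.578 to 5.10 CPM in drought leaves and from 1.11 to 7.33 CPM in control leaves. The late drought-and-heat values were all above every drought and control value. At 72 h the gene had 3.26, 3.02 and 11.5 CPM in drought-and-heat leaves and 4.11, 4.90 and 3.57 CPM in drought leaves. Before heat, then, 2 of its 3 drought-and-heat libraries were below every drought library (log2 0.37 ± 0.49 (SE), edgeR adjusted p = 0.760), and without replicate 3 the difference was -0.32. At 0 h it had 3.11, 3.75 and 4.26 CPM in drought-and-heat leaves and 1.92, 5.88 and 3.76 CPM in drought leaves.

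Pavir.9NG680300.v4.1 on 9N, at rank 3, was the most abundant of these. From 96 to 168 h its means in drought-and-heat leaves were 205.1 ± 68.6, 125.1 ± 31.7, 64.8 ± 27.3 and 88.2 ± 20.6 CPM in order of time (SD, n = 3 each). Drought leaves averaged 38.8 ± 26.4, 37.9 ± 30.00, 5.11 ± 2.60 and 31.5 ± 22.9 CPM at these times (SD, n = 3 each), and control leaves 75.9 ± 5.75, 59.9 ± 22.9, 21.7 ± 1.02 and 41.3 ± 3.35 CPM (SD, n = 3 each). All 3 arms had their lowest late mean at 144 h. At 72 h the drought-and-heat libraries held 34.8, 46.2 and 213.3 CPM and the drought libraries 20.9, 44.1 and 19.9 CPM, with drought-and-heat replicate 3 far above the rest (log2 1.61 ± 0.53 (SE), edgeR adjusted p = 0.145).

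**Figure D4:**
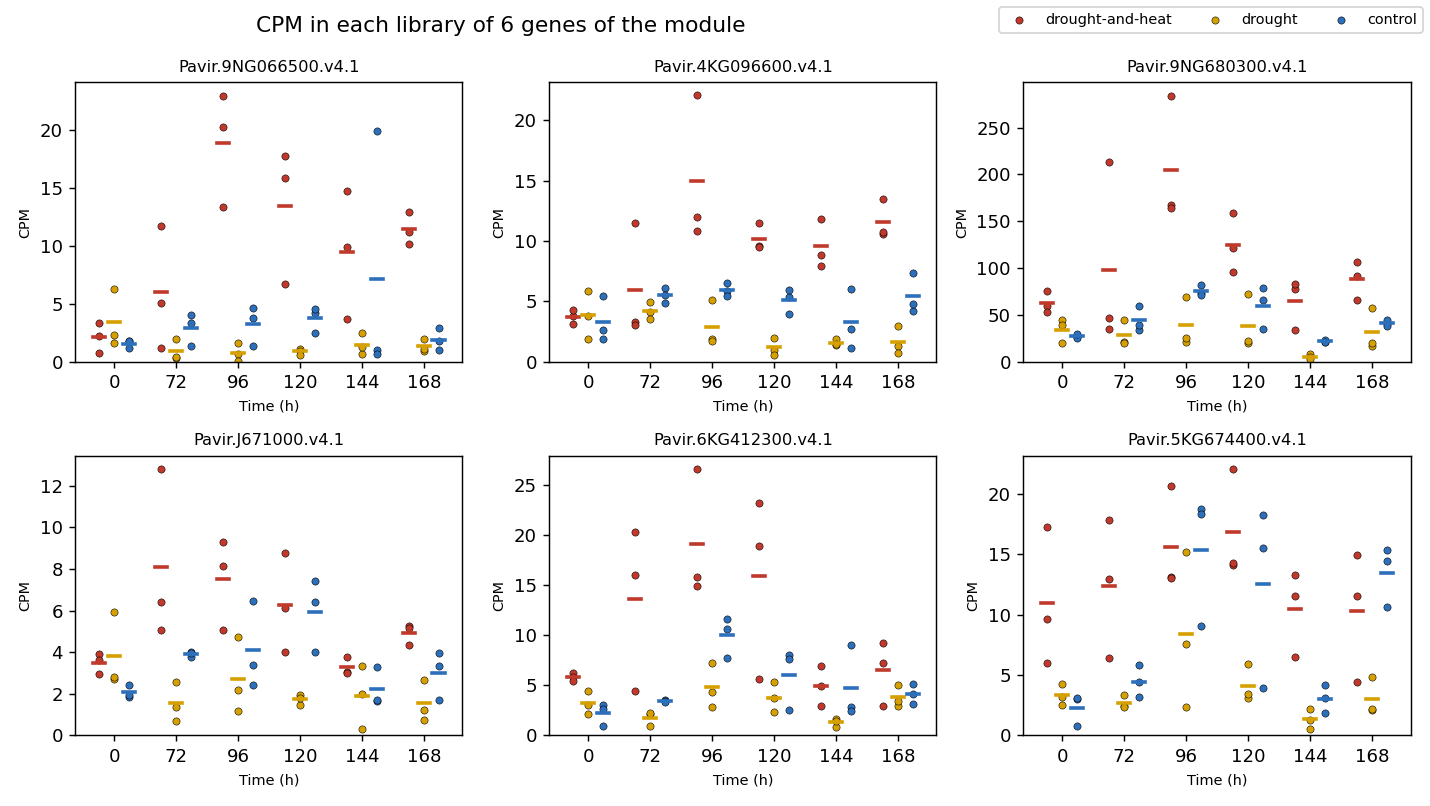
CPM on a linear y axis against time in hours for 6 of the 54 genes, with 3 libraries per treatment and time as points and their mean as a bar. The top row holds the genes of rank 1 to 3, and the bottom row 2 genes that passed the test at 72 h and 1 that passed at 0 h. The rank 2 gene stands at 7.95 to 22.1 CPM in all drought-and-heat libraries from 96 h.

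The 0 h and 72 h libraries took no part in choosing the genes and were tested on their own. Whether they share plants with the later libraries was not tested. An edgeR quasi-likelihood model was fitted to these 18 libraries and 31985 genes, with Benjamini-Hochberg adjustment over all of them. All 54 genes were tested, and log2 fold changes below come from this fit, which scales libraries by the trimmed mean of M values (TMM). Counts of genes in which libraries did not overlap use CPM on library totals instead, as do group means.

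At 72 h, with 0 h of heat, the 54 genes already stood higher in drought-and-heat than in drought leaves. All 54 log2 fold changes were positive (52.6% of all genes tested), from 0.10 to 4.26 with a median of 1.25, against a median of 0.03 over all genes tested and 0.27 over the other drought-low genes. The test called 3 of the 54 genes higher (0.335% of all genes) and 0 lower (0.259%). At unadjusted p below 0.05, 34 of the genes were higher (9.32% of all genes) and 0 lower (7.19%). In 18 of the genes every drought-and-heat library lay above every drought library (7.75% of the 27163 genes), as in 80 of the other drought-low genes, or 11.3% of them.

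The called genes were the following. Pavir.J671000.v4.1, on sequence placed on no chromosome, had 6.43, 5.06 and 12.8 CPM in drought-and-heat leaves and 2.56, 1.38 and 0.696 CPM in drought leaves (log2 2.31 ± 0.46 (SE), edgeR adjusted p = 0.0467). Its control libraries lay between them at 4.02, 3.76 and 3.96 CPM, with no overlap among the 3 groups. For Pavir.6KG412300.v4.1 on 6K, drought-and-heat leaves held 4.47, 20.3 and 16.02 CPM and drought leaves 2.13, 2.28 and 0.907 CPM (log2 2.87 ± 0.57 (SE), edgeR adjusted p = 0.0467), again without overlap. Pavir.8NG132000.v4.1 on 8N, named after its values were seen, had 1.36, 15.8 and 62.6 CPM in drought-and-heat leaves and 1.49, 1.61 and 0.544 CPM in drought leaves (log2 4.26 ± 0.91 (SE), edgeR adjusted p = 0.04996). Here drought-and-heat replicate 1 lay within the drought values.

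The 3 drought-and-heat libraries at 72 h were unlike each other. Their library values over the 54 genes were -0.43, 0.12 and 0.89, against -0.81, -0.37 and -0.92 in drought and -0.24, -0.48 and -0.14 in control leaves. Replicate 1 lay within the drought range and replicate 3 above every other library at 72 h. Without drought-and-heat replicate 1 the test called 17 of the 54 genes higher, beside 2.08% of all genes. Without replicate 2 or 3 it called 0, beside 0.0750% and 0% of all genes. Without drought replicate 1, 2 or 3 it called 0, 1 and 0, beside 0%, 0.0781% and 0%. The median log2 fold change without drought-and-heat replicate 3 was 0.82. Without replicate 2, which lacks the 405-gene set, it was 1.10, and without the libraries in which the set was absent at either time it was 1.14 with 0 of the 54 and 0% of all genes called higher. With the intermediate replicate 1 out as well, 18 of the 54 and 3.00% of all genes were called higher, and the lone drought-and-heat library left was assumed to vary like the other groups. Chamber and treatment arm cannot be told apart here.

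Drought leaves lay below control at 72 h for all 54 genes (48.4% of all genes tested), with log2 fold changes from -1.87 to -0.13 and a median of -0.56. edgeR called 0 of the genes and 0 of all genes tested in either direction (0%). DESeq2 called 0 of the 54, with 0.370% of all genes higher and 0.432% lower, and limma 0 of the 54 and 0% of all genes. At unadjusted p below 0.05, 12 of the genes were lower (2.85% of all genes) and 0 higher (3.28%). In 7 of them every drought library lay below every control library (3.14% of the 27163 genes), as in 30.4% of the other drought-low genes, whose median was -0.72. With single libraries left out the median of the 54 genes lay between -0.90 and -0.48, the former without drought replicate 2. The direction that chose the genes was thus met at 72 h in every one of them, by amounts that did not pass the test. In group means on library totals it was also met in 665 of the 707 other drought-low genes, or 94.1% (31.1% of the 27163 genes). It is therefore not particular to the 54 genes.

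Against control, drought-and-heat leaves at 72 h stood higher for 44 of the 54 genes (52.9% of all genes tested) and lower for 10, with a median log2 fold change of 0.49. edgeR called 0 of them (0% of all genes), while 11 were higher at unadjusted p below 0.05 (9.12%) and 0 lower (5.09%). DESeq2 called 4 of the 54 higher, beside 2.31% of all genes, and limma 0, beside 0%. Every drought-and-heat library lay above every control library in 7 genes, or 13.0% (16.6% of the 27163 genes). On library totals, group means were higher than control for 49 of the 54 genes (68.3% of the 27163 genes). Without drought-and-heat replicate 3 the median was 0.13, and without replicate 1 there were 5 calls, beside 1.49% of all genes. The other drought-low genes had a median of -0.49, so before heat they already stood on the other side of control, on the scale of medians and with 0 of 707 called.

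**Figure D5:**
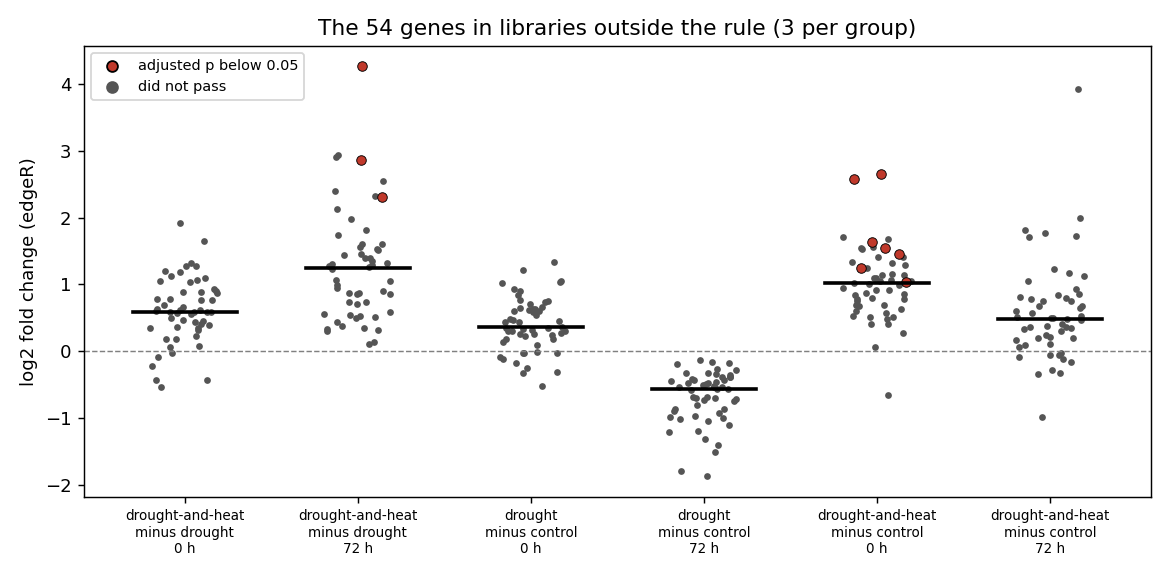
Log2 fold changes of the 54 genes (points) from the edgeR fit to the 18 libraries at 0 and 72 h, with a black bar at the median, for 3 comparisons at each time on the x axis. Red points passed an adjusted p of 0.05. At 72 h all points of drought-and-heat minus drought lie above 0 and all points of drought minus control below 0.

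The arms also differed before any treatment. At 0 h, drought-and-heat leaves stood higher than control for 53 of the 54 genes (51.4% of all genes tested), with a median log2 fold change of 1.02, against 0.02 over all genes tested and 0.78 over the other drought-low genes. The test called 7 of the 54 genes higher (1.89% of all genes) and 0 lower (2.41%), and 28 were higher at unadjusted p below 0.05 (13.4%). Of the other drought-low genes 43 were called higher, or 6.08% of them. In 25 of the 54 genes every drought-and-heat library lay above every control library (8.80% of the 27163 genes), and in 1 gene every one lay below (35.4%). On library totals rather than TMM, the median over the 27163 genes was -0.28 and that of the 54 genes 0.56. In Pavir.5KG674400.v4.1 on 5K the 0 h libraries held 5.96, 9.67 and 17.2 CPM in drought-and-heat leaves and 0.772, 3.01 and 3.09 CPM in control leaves (log2 2.58 ± 0.55 (SE), edgeR adjusted p = 0.0317). Over the 7 called genes the log2 fold changes ran from 1.04 to 2.65 and the edgeR adjusted p from 0.0317 to 0.0488. The number of calls changed when single libraries were left out. It fell to 0 of the 54, beside at most 0.0188% of all genes, when control replicate 1 was dropped. The same held for each drought-and-heat replicate dropped in turn. With control replicate 2 dropped it was 3, beside 0.566%, and with control replicate 3 dropped it was 7, beside 2.38%. The median log2 fold change of the 54 genes stayed between 0.79 and 1.07 in these fits. The reason for the lost calls was not tested. Without the libraries lacking the 405-gene set, 0 of the 54 and 0% of all genes were called higher and the median was 0.97.

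Drought-and-heat leaves exceeded drought leaves at 0 h by less. The median log2 fold change was 0.59, positive for 48 genes (49.6% of all genes tested), with 0 called by edgeR (0% of all genes), 3 by DESeq2 (0.432%) and 0 by limma (0%), and 13 higher at unadjusted p below 0.05 (3.90%). Every drought-and-heat library was above every drought library in 16 genes, or 29.6% (3.92% of the 27163 genes). This held for 20.5% of the other drought-low genes, whose median log2 fold change was 0.56. Before treatment the median of the 54 genes was thus close to that of the other drought-low genes. Drought and control leaves, which shared a chamber, differed by a median of 0.36 at 0 h, with drought higher for 43 genes (52.7%), and without overlap for 10 (3.24% of the 27163 genes). edgeR (0% of all genes), DESeq2 (0.0376% higher) and limma (0%) called 0, and 4 genes were higher at unadjusted p below 0.05 (2.94%). Without control replicate 1 that median was 0.16.

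The change of each gap from 0 h to 72 h was tested itself, with libraries of both times treated as independent. For drought minus control the median change was -0.95, negative for 51 of the 54 genes (50.5% of all genes tested), and -0.94 over the other drought-low genes. edgeR called 0 (0% of all genes), limma 0 (0%) and DESeq2 1, negative (0.182%), and 15 genes had an unadjusted p below 0.05, all negative (4.19% of all genes). For drought-and-heat minus drought the median change was 0.56, positive for 42 genes (53.2%), against -0.30 in the other drought-low genes. edgeR (0% of all genes), DESeq2 (0.132% positive) and limma (0%) called 0 of the 54, and 8 were positive at unadjusted p below 0.05 (5.98%). Without drought-and-heat replicate 3 at 72 h that median was 0.20.

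The 54 genes varied together in the libraries outside the rule. Over the 18 libraries at 0 and 72 h, the log2 level of a gene correlated with the sum of the other 53 at a median Pearson r of 0.75, from -0.01 to 0.93, and above 0.5 for 47 genes. For the other 27109 abundant genes the median r with the same profile was -0.04, and 9.24% exceeded 0.5. These points share libraries and their scaling, and r spans arms and times, so the gaps between arms given above enter it. The 54 genes were chosen for a shared pattern over the same arms, so nothing is read from the comparison with other genes.

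By the chromosome coded in the identifiers, 31 genes lay on the N subgenome, 22 on K and 1 on unplaced sequence. The N share of 57.4% compares with 47.2% of the 27163 genes and 45.1% of the other drought-low genes. Chromosome 9N held 11 genes, or 20.4% (10.01% of the 27163), and 6K held 6, or 11.1% (3.95%), while 1K and 8K held 0. On 6K, Pavir.6KG406500.v4.1 and Pavir.6KG407000.v4.1 lie 3 identifiers apart in the table's order, and on 5K, Pavir.5KG286000.v4.1 and Pavir.5KG289700.v4.1 lie 5 apart. These were the only pairs within 5 steps. The value of a gene with a near-identical copy on the other subgenome is uncertain, since reads may have been divided between them. Mean levels ran from 3.08 to 98.9 CPM with a median of 13.6 CPM, close to the median of 14.02 CPM of the 27163 genes.

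The list depends on its limits. At the drought limit, Pavir.3KG238300.v4.1 passed with a gap of -0.400026 and Pavir.9KG134200.v4.1 failed with -0.399542. At the heat limit, Pavir.2KG432400.v4.1 passed at -0.18 and Pavir.6KG293500.v4.1 failed at -0.21. At the abundance limit, Pavir.5KG760100.v4.1, also the last by rank, passed with 3.08 CPM and Pavir.7NG413600.v4.1 failed with 2.51 CPM. With TMM scaling in place of library totals, 74 genes passed, of which 31 were among the 54. At 72 h, these 31 had a median of 1.28 for drought-and-heat against drought leaves, all positive, and of -0.69 for drought against control leaves, all negative, on the log2 scale. Without the libraries lacking the 405-gene set, 129 genes passed, with 40 of the 54 among them. Without drought replicate 2 at 96 h or drought replicate 2 at 168 h, 87 and 84 genes passed, each with 52 of the 54.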

How the data were processed

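Leaf RNA was sequenced from 54 libraries in 18 groups of 3, assigned by sample title. Titles reading 94 h were taken as 96 h and 1 week as 168 h, the times in the series design. A stranded mRNA kit was used, per the labels' protocols. TopHat, Cufflinks and HTSeq are named in the submitters' processing notes, without versions. Genome build, annotation and strand setting: not given in the sources used here. Raw integer counts, as deposited by the authors, were used for every gene.

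CPM was computed from column totals. Counts at 0 and 72 h entered a model in edgeR 4.0.16 under R 4.3.3 (default expression filter, TMM, quasi-likelihood, adjusted p below 0.05), with no covariates, since the later libraries chose the genes. SE is the size of the log2 fold change over the square root of F. The model was tested on simulated data with the same spread for every gene, so that test does not cover libraries as unlike as these. Alternatives were DESeq2 1.42.0, other scalings, filters and libraries, the replicate number as a block, and, chosen after the data were seen, limma 3.58.1 and leaving out libraries lacking the 405-gene set. That set holds genes averaging 20 or more counts at 0 h whose log2(CPM + 0.5) lay at least 2 lower in drought replicate 1 and drought-and-heat replicate 2 than in the other 0 h libraries. The genes named are ranks 1 to 3, up to 2 called genes in each direction per 72 h comparison and 1 per 0 h comparison, and those at the limits of the rule. The module, its rule and these comparisons were chosen with earlier results of these data known.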

Additional observations from a re-analysis of the deposited data

How the results depend on the processing

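Counts of the 54 genes called are given with the share of all genes called higher in the same fit. For drought-and-heat minus drought at 72 h they were 3 (0.335%) in the fit reported, 22 (3.80%) with DESeq2, 11 (1.86%) with all libraries of the series, 8 (0.892%) with a stricter filter, 5 (0.447%) with DESeq2 size factors, 1 (0.150%) with limma, 1 (0.138%) with an estimated correlation of 0.174 between libraries of the same number in an arm, 0 (0%) with only the groups compared, 0 (0%) without the libraries lacking the 405-gene set and 18 (3.00%) without the intermediate ones as well. Leaving out single libraries gave 0 to 17 (0% to 2.08%). For drought-and-heat minus control at 72 h the count of 0 (0%) became 4 (2.31%) with DESeq2, 1 (1.34%) with all libraries and 8 (1407 of 31947 genes) without the absent and intermediate libraries, and 0 to 5 (0% to 1.49%) with single libraries left out. For drought-and-heat minus control at 0 h the count of 7 (1.89%) became 20 (7.11%) with DESeq2, 4 (0.223%) with only the groups compared, 0 (0%) without the libraries lacking the set, 0 (0.00313%) without the intermediate ones too, and 0 to 7 (0% to 2.38%) with single libraries left out. DESeq2 gave 3 (0.432%) for drought-and-heat minus drought at 0 h, and 1 lower (0.182% of all genes lower) for the change of drought minus control. The cause of these shifts was not tested. The median log2 fold changes kept their sign in every setting run, and lay between 0.82 and 1.65 for drought-and-heat minus drought at 72 h and between -0.90 and -0.48 for drought minus control.

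With the replicate number as a block, 0 genes (0.0375%) were called for drought-and-heat minus drought at 72 h and 6 (1.66%) for drought-and-heat minus control at 0 h. Same-numbered libraries of the groups compared had correlations of -0.51 to 0.32 in their deviations from group means, over 0.1 in 5 of 18 pairs, so the numbers were not taken to pair them. Pavir.4KG096600.v4.1 had log2 fold changes of -0.32 to 0.66 at 72 h with single libraries left out, the negative one without drought-and-heat replicate 3. The common biological coefficient of variation between libraries was 0.430. The number of genes that pass the rule was 33 at a mean of at least 10 CPM, 134 with limits of 0.3 and 0.3, and 21 with limits of 0.5 and 0.1.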
